A study of Mus musculus with 24 samples.

Results

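The genes described here are transcription factors that mark nuclei of the hypothalamus, taken as a list of 10 names, namely *Nkx2-1*, *Isl1*, *Six6*, *Six3*, *Lhx1*, *Sim1*, *Otp*, *Nr5a1*, *Fezf1* and *Foxb1*. Of these, 9 of 10 had values among the 13998 genes measured, and *Otp* was not analysed here. Their levels were read as a record of the nuclei that each dissected hypothalamus held. The libraries came from 24 adult male F_2_ mice, 1 library per mouse, descended from a subcongenic strain that carries a piece of CAST Chr 17 on the B6 background. Across that piece 12 mice were *cast/cast* and 12 were *b6/b6*, and all 24 were *b6/b6* elsewhere. All had chosen between a carbohydrate/protein (C/P) and a fat/protein diet for 10 d, and the *cast/cast* mice were taken for high and the *b6/b6* mice for low carbohydrate intake, so that genotype and intake were selected together. After a period on chow the mice received both diets again for about 48 h before the hypothalamus was collected. *Six3* is the only 1 of the 9 genes on Chr 17 (chr17:85620834-85626191, GRCm38), where it lies distal to the CAST piece.

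The hypothalamus is a mosaic of small nuclei, and transcription factors that set up each nucleus in the embryo often stay on in its adult neurons. *Nkx2-1* specifies the ventral hypothalamus, *Isl1* acts in arcuate neurons that make *Pomc*, *Agrp* or *Ghrh*, and *Six3*, *Six6* and *Lhx1* belong to the anterior hypothalamus and the suprachiasmatic nucleus, the circadian pacemaker. *Sim1* is needed for the neuroendocrine neurons of the paraventricular and supraoptic nuclei, *Nr5a1* and *Fezf1* for the ventromedial nucleus, and *Foxb1* for the mammillary body at the posterior end.

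Expression was measured by SAGE-Seq, which counts 1 short 3′ tag per transcript. Transcript length therefore does not enter a level, and genes can be compared on the scale of normalized counts, that is tag hits divided by the size factor of the library. The libraries held 7754202 to 13082873 tag hits, and the median was 10032338 for *b6/b6* and 10383038 for *cast/cast*. No mouse had 0 tag hits for any of the 9 genes, the lowest being 7 for *Fezf1* in *cast/cast* mouse 6. A tag was taken here as the 27 bases that start at the CATG nearest to the 3′ end of a transcript. That site is an assumption from common SAGE kits, as the enzyme is not given in the sources used here, and the tags printed rest on it. In the GENCODE transcripts of GRCm38 the predicted tag of all 9 genes lay in the last exon and in the 3′ untranslated region, and 0 other genes shared it. For 8 of 9 it fell inside the transcript span that the deposited table gives, and for *Lhx1* it lay 1000 bases outside. The tags of *Nkx2-1*, *Six3*, *Six6* and *Foxb1*, which mark the ventral, anterior and posterior hypothalamus, are given in lower case with the CATG in capitals. They lie at chr12:56532446-56532472 on the minus strand (*Nkx2-1*), chr17:85625928-85625954 on the plus strand (*Six3*), chr12:72944796-72944822 on the plus strand (*Six6*) and chr9:69757777-69757803 on the minus strand (*Foxb1*).
Nkx2-1: CATGgccctgaactctaaagacggaaa
Six3: CATGgtaaaggaaaaccagtaacaaaa
Six6: CATGtgttataaagattttacattttt
Foxb1: CATGcccattttaagacagagttttaa

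Before any comparison the 24 libraries were described by the principal components of 13903 genes outside the lists used here, with the genotype means removed. The first component (PC1) held 34.8% and the second 17.6% of the variance. Along the second, *b6/b6* mouse 6 (0.44) and *b6/b6* mouse 12 (0.60) stood apart from the other 22 libraries, whose highest value was 0.30. Of those 22, PC1 was above 0 in 10 (4 *cast/cast* and 6 *b6/b6*) and below 0 in 12 (8 *cast/cast* and 4 *b6/b6*). These sets were made from the data and are not groups of the study, so levels are not tested between them. PC1 reached up to -0.05 in the set below 0 and started at 0.09 in the set above. The factors followed both components to different degrees. PC1 and PC2 together accounted for 82.1% of the variance of *Nkx2-1* within genotypes, 59.0% for *Six6*, 58.1% for *Fezf1*, 49.8% for *Sim1*, 42.5% for *Nr5a1* and 41.7% for *Six3*. For *Isl1* the share was 28.5%, for *Lhx1* 25.0% and for *Foxb1* 11.5%. The r with PC1 and with PC2 was -0.90 and -0.11 for *Nkx2-1*, but 0.36 and -0.61 for *Sim1*. In size, r was larger with PC2 for *Sim1*, *Lhx1* and *Foxb1* and with PC1 for the others. The factors also followed the total of normalized counts of a library. Here r was -0.87 for *Nkx2-1*, -0.64 for *Nr5a1*, -0.62 for *Fezf1*, -0.46 for *Lhx1* and -0.35 for *Foxb1*. It was 0.37 for *Sim1*, 0.41 for *Isl1*, 0.55 for *Six3* and 0.63 for *Six6*. The part of this total in the levels was not tested. In dissected tissue, fewer cells of a type and less RNA per cell cannot be told apart.

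**Figure D1:**
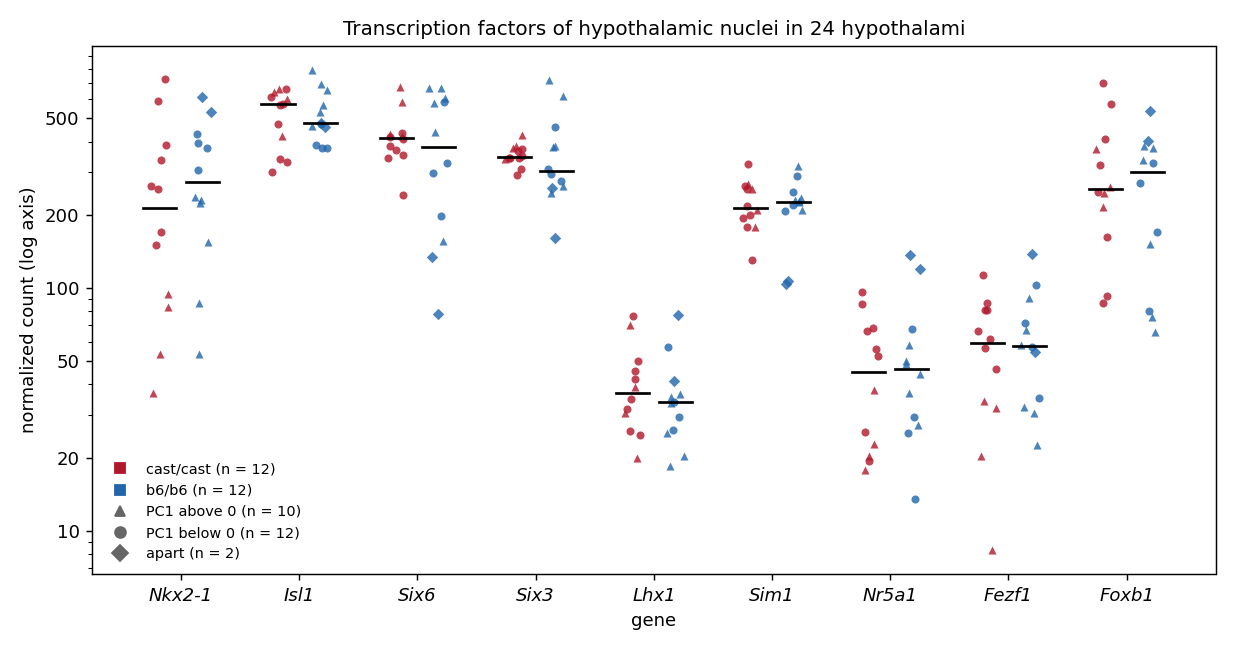
Normalized count (log axis) of the 9 transcription factors in each mouse, with *cast/cast* in red and *b6/b6* in blue (12 mice each), marker shapes for the library sets and a black bar at each median. The genotypes overlap for every gene, and *Nkx2-1* spreads from 36.8 to 724 while *Isl1* stays between 300.3 and 789.6.

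Over the 24 mice *Isl1* was the most abundant of the 9, with a median of 504 normalized counts. It was followed by *Six6* (415.0), *Six3* (342), *Foxb1* (266), *Nkx2-1* (247) and *Sim1* (222), and then by *Fezf1* (57.6), *Nr5a1* (46.4) and *Lhx1* (34.4). The only clear step in this order was between *Sim1* and *Fezf1*, since *Sim1* was the higher in 23 of 24 mice. Other neighbours exchanged places freely. *Foxb1* exceeded *Nkx2-1* in 12 of 24 mice, *Nkx2-1* exceeded *Sim1* in 12, *Fezf1* exceeded *Nr5a1* in 14, and the remaining neighbours kept their order in 16 or 17.

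The spread between mice also separated the genes. Within genotypes the SD of log2(normalized count + 1) was 1.20 for *Nkx2-1*, more than in 95.2% of all genes, and 0.99 for *Foxb1* (88.7%), 0.90 for *Fezf1* (84.3%), 0.90 for *Nr5a1* (84.0%) and 0.78 for *Six6* (75.4%). *Lhx1* (0.57) was at the median gene (0.57), and *Six3* (0.44), *Sim1* (0.43) and *Isl1* (0.39) varied less than it. The variance of tag hits was 7.71 (*Lhx1*) to 139 (*Nkx2-1*) times that of counting alone. Once the means of the library sets were removed and the libraries apart left out, *Foxb1* varied more than 96.5% of genes (SD 1.01) and *Nkx2-1* more than 86.4% (SD 0.73), so most of the spread of *Foxb1* lay within the sets.

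The comparison of *cast/cast* with *b6/b6* mice asked whether the factors differ with the Chr 17 piece together with the intake selected beside it. With limma, 0 of 9 factors were called by the rule of P at or below 0.01, before adjustment, with means differing by a ratio of 1.5 or more, which called 1.49% of all genes (208 of 13998). The count was also 0 of 9 with unadjusted P at or below 0.05 (8.13% of all genes) and with adjusted P at or below 0.05 (0.572%). On recovered tag hits, edgeR and DESeq2 called 0 of 9, where they called 2.79% and 2.82% of all genes. The log2 fold change was positive for 5 and negative for 4 of the 9, and its median size was 0.17 beside 0.19 over all genes. No factor thus differed between genotypes by more than the spread between mice allows to be seen.

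Leaving out the libraries apart gave 0 of 9 called (0.982% of all genes). Adding both components as covariates also gave 0 of 9 (4.96%). As genotype means had been removed from the components, this step could change the P of a factor but not its log2 fold change. The limma P of *Nkx2-1* was 0.0420 with these covariates and 0.347 without, and no other factor reached 0.05 with them. Within the 10 libraries with PC1 above 0, 0 of 9 were called (7.54% of all genes), while 3 of 9 reached an unadjusted P of at most 0.05, which 21.9% of all genes did there. These were *Nkx2-1*, *Fezf1* and *Nr5a1*, with log2 fold changes of -1.18, -1.06 and -0.83, so each was lower in *cast/cast* mice. In this set PC1 was 0.25 to 0.38 in *cast/cast* mice and 0.09 to 0.31 in *b6/b6* mice. With genotype means removed, r with PC1 inside the set was -0.94, -0.53 and 0.01 for these factors. The part of PC1 in their differences was not tested. Within the 12 libraries below 0 the log2 fold changes were -0.25, 0.20 and 0.83, with 0 of 9 called (1.15%). The difference between the sets was not tested.

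**Figure D2:**
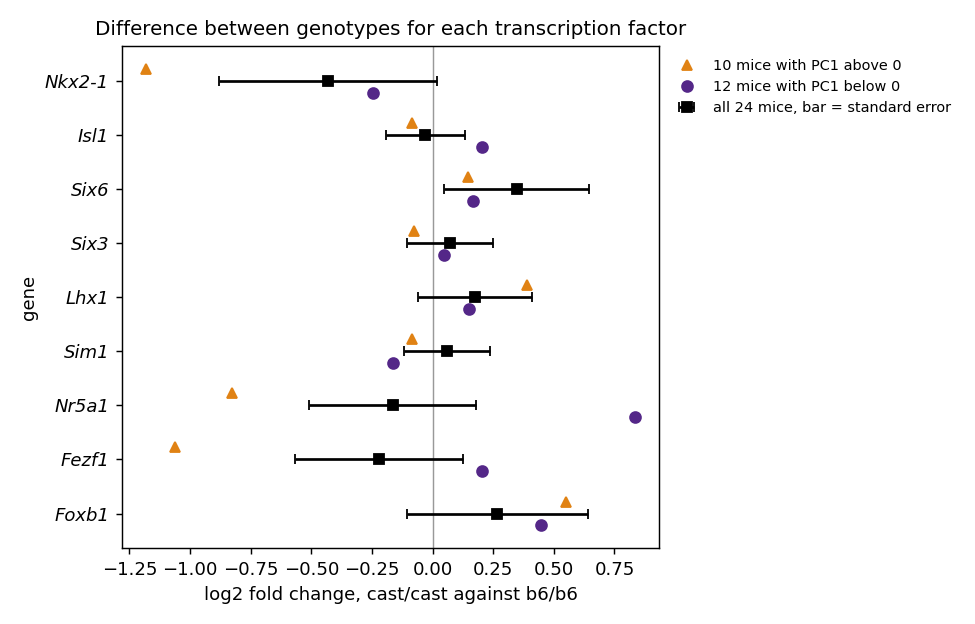
Log2 fold change of *cast/cast* against *b6/b6* for each factor in all 24 mice (squares, bars are standard errors from limma), in the 10 libraries with PC1 above 0 (triangles) and in the 12 below 0 (circles). *Nkx2-1* has the largest estimate of limma over all mice, -0.43 with a standard error of 0.45, and *Nr5a1* lies at -0.83 and 0.83 in the library sets.

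*Nkx2-1* ranged from 36.8 to 724 normalized counts in *cast/cast* mice, with a median of 213, and from 53.2 to 610.2 in *b6/b6* mice, with a median of 272. All 12 *b6/b6* values fell inside the range of *cast/cast* mice. The log2 fold change was -0.43 ± 0.45 (SE, P = 0.347, adjusted P = 0.779), and -0.19 without the libraries apart, -0.20 with edgeR and -0.21 with DESeq2. By library set its median was 90.4 where PC1 was above 0, 357 where it was below 0, and 569 in the libraries apart. The highest value of the first set (238, *b6/b6* mouse 8) passed the lowest of the second (149.6, *cast/cast* mouse 1), so that the sets overlapped by few mice. The genes most like *Nkx2-1* over the 24 mice were *Ccdc73* (r = 0.94), *2510003E04Rik* (r = 0.93) and *Srsf5* (r = 0.91), which had r of 0.66, 0.51 and 0.29 with both components as covariates. In all, 47.9% of genes were associated with *Nkx2-1* at an adjusted P of at most 0.05, so a list gene that passed was no rarity. The count was 0 with both components as covariates and 0 in each library set.

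*Isl1* ranged from 300.3 to 659 normalized counts in *cast/cast* mice, with a median of 569, and from 375 to 789.6 in *b6/b6* mice, with a median of 476. Over all 24 mice it had the smallest spread of the 9, the highest mouse having 2.63 times the lowest, whereas without the libraries apart that of *Sim1* was smaller (SD 0.29 against 0.40). Most mice of either genotype lay inside the range of the other. Between genotypes the log2 fold change was -0.03 ± 0.16 (SE, P = 0.856). Its median was 621 where PC1 was above 0, 429 below 0 and 469 in the libraries apart. Over the 24 mice 0.00714% of genes (1 of 13997) were associated with *Isl1*, namely *Ptchd2* (r = 0.83, adjusted P = 0.0138), and the count was 0 with equal totals or with study number as a covariate. It was 564 (4.03%) for *b6/b6* mice alone, 48 for *cast/cast* mice alone and 159 (1.14%) in the 12 libraries below 0. Next came *Kdelc2* and *6330403K07Rik* (r = 0.78 each, adjusted P = 0.0582 each).

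The arcuate list (*Pomc*, *Agrp*, *Npy*, *Kiss1*, *Tac2*, *Ghrh*, *Cartpt* and *Tbx3*) holds peptides and a factor of the neurons that sense energy state. All 8 had values, 0 of 8 were called between genotypes, and their summed level ran from 2124 in *cast/cast* mouse 9 to 10428 in *cast/cast* mouse 1. *Pomc* was the most abundant (mean 2401), before *Agrp* (1126) and *Cartpt* (1004), and *Kiss1* was at 0 in 2 mice, *cast/cast* mouse 9 and *b6/b6* mouse 12. *Isl1* was associated with 0 of the 8 at an adjusted P of at most 0.05. Among its companions *Pomc* reached r = 0.47 (permutation P = 0.0196; rho 0.51, P = 0.0110; 0.56 without the 2 farthest mice; adjusted P = 0.113) and *Ghrh* r = 0.44 (permutation P = 0.0410; rho 0.46, P = 0.0276; 0.57 without them; adjusted P = 0.152). Within the library sets these values were 0.40 and 0.36 for *Pomc* and 0.46 and 0.37 for *Ghrh*, so the sign held and the adjusted test was not passed. *Agrp* (r = 0.22) and *Th* (r = -0.00) varied apart from *Isl1*. *Nkx2-1* and *Isl1* were at r = -0.31 (permutation P = 0.162, adjusted P = 0.222) over all mice, -0.49 in the 10 libraries and 0.73 in the 12 (permutation P = 0.0377; rho 0.68, P = 0.0542), which are opposite signs.

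*Six6* ranged from 241 to 673 normalized counts in *cast/cast* mice, with a median of 415.0, and from 78.3 to 666 in *b6/b6* mice, with a median of 381. The 4 lowest values were all in *b6/b6* mice, namely 12, 6, 5 and 7 in rising order, and the high ends of the genotypes coincided. For *cast/cast* against *b6/b6* the log2 fold change was 0.35 ± 0.30 (SE, P = 0.254), and 0.02 without the libraries apart. Its median was 580.5 where PC1 was above 0, 362 below 0 and 106 in the libraries apart. The genes most like *Six6* were *Dgkg* (r = 0.91), *Rpl8* (0.87) and *Cdc14a* (0.87), while 29.2% of all genes were associated with it. This share was 19.7% with equal totals and 8.57% with study number as a covariate, and without the libraries apart it was 2 of 13947 genes. The list genes named below as associated with *Six6* are those that passed over all 24 mice.

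*Six3* ranged from 293 to 424 normalized counts in *cast/cast* mice, with a median of 346, and from 159.9 to 714.5 in *b6/b6* mice, with a median of 302. The *cast/cast* mice were close together, 4 of 12 *b6/b6* mice fell inside their range, and *b6/b6* mice lay on both sides of it. Its log2 fold change was 0.07 ± 0.18 (SE, P = 0.689), whereas the ratio of means was 0.973, so the sign of the difference depended on the scale. The genes most like *Six3* were *Btg1* (r = 0.87), *Iqcg* (0.85) and *Tmem43* (0.83), and 11.2% of all genes were associated with it. The share was 0.107% with study number as a covariate, and the count was 0 with equal totals and 0 of 13947 without the libraries apart. The list genes named below as associated with *Six3* are those that passed over all 24 mice with the authors' scaling.

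*Six3* and *Six6* are close relatives among the homeobox genes, and they rose together. Over the 24 mice r was 0.77 (permutation P = 0.00076), rho was 0.70 (P = 0.00193), and the pair passed in both fits (adjusted P = 0.00742 and 0.00166). Without the mice farthest in *Six3*, *b6/b6* mice 2 and 12, r was 0.63, and without the libraries apart it was 0.62, where the pair no longer passed. It did not pass with equal totals either. Within the sets r was 0.49 (permutation P = 0.326) in the 10 libraries and 0.84 (P = 0.0116) in the 12. With both components as covariates it was 0.56 and no longer passed. The libraries with the lowest *Six6* had low *Six3* as well, whereas *b6/b6* mouse 4 had high *Six6* (666) and low *Six3* (263).

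The 250 bases before the starts of *Six3* and *Six6* in a RefSeq promoter set are shown in lower case. The longest stretch found in both is in capitals. The RefSeq promoter table for GRCm38 matched 7 of the 9 genes, and *Nr5a1* and *Foxb1* were not matched. The windows are chr17:85620584-85620833 for *Six3* and chr12:72939632-72939881 for *Six6*, both on the plus strand. The deposited start of *Six3* is 85620834, directly after its window. That of *Six6* is 72939945, so the *Six6* window ends short of it. The shared stretch TTGATTGGCAG, searched on both strands, is 11 bases long and occurs in 0.0338% of the 32536 distinct windows of this length. It was picked from these windows as the longest in common, so its low share is no test of a common element. Its part in the levels of the genes was not tested. CCAAT, also on both strands, occurs 3 times in the *Six3* window and 2 times in that of *Six6*, and overlaps the shared stretch; 33.8% of windows hold it. TGATAC occurs in neither and in 4.66% of all windows. The GC content is 48.8% for *Six3* and 62.8% for *Six6*.
Six3: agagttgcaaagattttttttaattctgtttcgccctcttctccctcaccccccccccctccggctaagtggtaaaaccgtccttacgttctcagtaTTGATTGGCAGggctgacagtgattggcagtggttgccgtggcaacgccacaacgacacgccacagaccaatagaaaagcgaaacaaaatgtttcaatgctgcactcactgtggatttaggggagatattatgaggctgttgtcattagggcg
Six6: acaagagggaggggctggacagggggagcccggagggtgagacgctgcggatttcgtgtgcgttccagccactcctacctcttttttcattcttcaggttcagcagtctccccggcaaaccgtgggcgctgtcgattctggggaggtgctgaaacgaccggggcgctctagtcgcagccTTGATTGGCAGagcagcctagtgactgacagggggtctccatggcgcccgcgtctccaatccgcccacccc

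**Figure D3:**
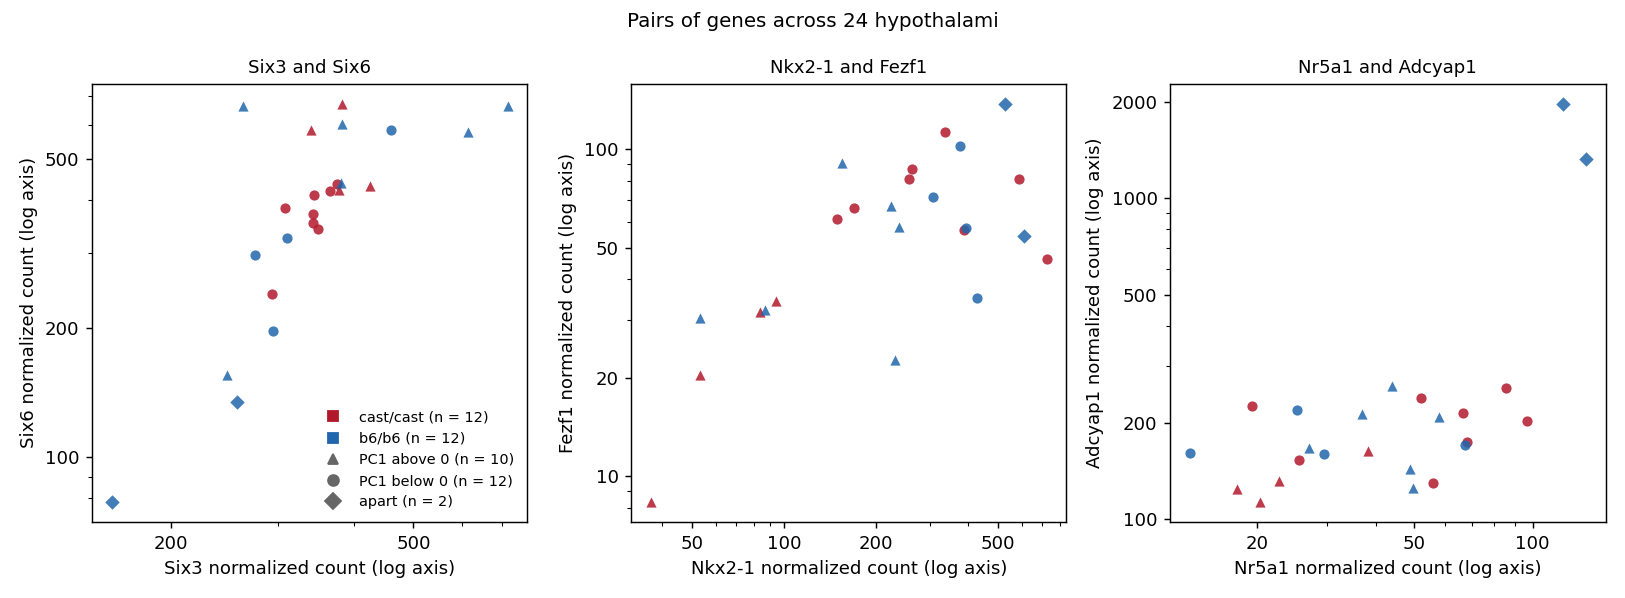
Normalized counts (log axes) of 3 pairs of genes in 24 mice, colored by genotype with marker shapes for the library sets. *Six3* and *Six6* have r of 0.77 over all mice, 0.49 in the 10 libraries above 0 and 0.84 in the 12 below 0. This difference between sets was not tested. *Nkx2-1* and *Fezf1* rise together across the sets more than inside them, and *Nr5a1* and *Adcyap1* are both at their highest in *b6/b6* mice 6 and 12.

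Of the 8 arcuate genes, 3 were associated with *Six6* (29.2% of all genes were), the level of *Pomc* (r = 0.78) and *Kiss1* (r = 0.72) rising and that of *Tac2* (r = -0.50) falling. For *Six6* and *Pomc*, a pair singled out after its value was seen, the permutation P was 2e-05, rho was 0.72 (P = 0.00056), r without the libraries farthest in *Six6*, which are also the libraries apart, was 0.78, and the adjusted P was 0.000583. It was 0.87 in the 10 libraries (permutation P = 0.0349) and 0.65 in the 12 (P = 0.00886), where rho was 0.48 (P = 0.160) and 0.58 (P = 0.0558), so by rank neither set passed. With both components as covariates r was 0.73 (adjusted P = 0.0460). *Six6* and *Kiss1*, also chosen after the fact, had a permutation P of 0.00025, rho of 0.65 (P = 0.00184), r of 0.58 without the same mice, 0.26 in the 10 libraries (rho 0.09) and 0.76 in the 12 (rho 0.57, P = 0.0760), and an adjusted P of 0.00167. *Six3* and *Pomc* had r = 0.57 (permutation P = 0.00505; rho 0.50, P = 0.0256; 0.45 without the farthest; adjusted P = 0.0307), with 0.36 and 0.52 in the sets (rho 0.03 and 0.53). *Pomc* was lowest in *cast/cast* mouse 9 (320.3), *b6/b6* mouse 5 (521) and *b6/b6* mouse 12 (544), and *Six6* was among its lowest values in each genotype there (241, 156 and 78.3).

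*Lhx1*, which in the suprachiasmatic nucleus keeps clock neurons coupled, was the least abundant by median. It was also the only 1 of the 9 whose predicted tag lay outside its deposited transcript span. It ranged from 20.01 to 76.9 normalized counts in *cast/cast* mice, with a median of 36.9, and from 18.4 to 77.6 in *b6/b6* mice, with a median of 33.7. The genotypes covered the same range, and the log2 fold change was 0.17 ± 0.24 (SE, P = 0.466), and 0.32 without the libraries apart. With limma 0 of 13997 genes (0.00%) were associated with *Lhx1* at an adjusted P of at most 0.05, and the 3 most like it were *Cxcr2* (r = 0.74), *Zfp536* (0.73) and *Flt1* (0.73), each with an adjusted P of 0.108. With equal totals the count was 629 (4.49%), so it depends on the scaling of the libraries.

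The suprachiasmatic list (*Vip*, *Prok2*, *Nms*, *Vipr2*, *Rgs16*, *Rorb* and *Zfhx3*, with *Syt10* not analysed here) had values for 7 of 8 genes and 0 called between genotypes. Its sum ran from 1336 in *cast/cast* mouse 11 to 5183 in *cast/cast* mouse 6, with *Rorb* as the most abundant gene (mean 859), then *Rgs16* (830.4) and *Zfhx3* (673), and no gene was at 0 in any mouse. *Six6* was associated with 2 of the 7, *Rorb* (r = 0.59) and *Zfhx3* (r = 0.58), which is no more than its share of 29.2% over all genes, and *Lhx1* and *Six3* with 0. *Vip*, the transmitter of the core of this nucleus, had r = 0.34 with *Six6* (permutation P = 0.196; rho 0.34, P = 0.134; 0.52 without the 2 farthest mice; adjusted P = 0.172), a pair that passed with study number as a covariate, and r was 0.88 in the 10 libraries (permutation P = 0.00438) and 0.20 in the 12. *Lhx1* was unrelated to *Vip*, *Prok2* and *Avp* over all mice (r = -0.08, -0.01 and -0.11; adjusted P = 0.859, 0.988 and 0.810). Within the 12 libraries the same values were -0.70, -0.75 and -0.87 (permutation P = 0.0190, 0.00876 and 0.00064; rho -0.59, -0.65 and -0.84), and within the 10 they were -0.07, -0.08 and -0.33. Each of these within-set relations was seen in 1 set, and the difference between sets was not tested.

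*Sim1* ranged from 130.02 to 323 normalized counts in *cast/cast* mice, with a median of 213, and from 103 to 318 in *b6/b6* mice, with a median of 226. Apart from *b6/b6* mice 12 (103) and 6 (107) the level was steady, and the genotypes overlapped. Between genotypes the log2 fold change was 0.06 ± 0.18 (SE, P = 0.744), and -0.14 without the libraries apart. The genes most like *Sim1* were *Steap2* (r = 0.87), *Zfp654* (0.87) and *Aftph* (0.86). At an adjusted P of at most 0.05, 11.6% of genes were associated with it over all mice. The share was 0.650% with equal totals, 3.02% when study number was a covariate and 29.5% for *b6/b6* mice alone, and the count was 0 in *cast/cast* mice alone and 0 without the libraries apart. It thus depends on those libraries and on the scaling.

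The paraventricular and supraoptic list (*Avp*, *Oxt*, *Crh*, *Trh*, *Pou3f2* and *Arnt2*) had values for 6 of 6 genes, 0 called between genotypes and none at 0. Its sum ran from 809 in *cast/cast* mouse 1 to 5779 in *cast/cast* mouse 10, and the most abundant gene was *Trh* (mean 1444), then *Arnt2* (450.1) and *Pou3f2* (319). *Sim1* was associated with 0 of the 6. Its correlations with the hormones of these nuclei were -0.22 for *Oxt*, -0.26 for *Avp*, -0.06 for *Crh* and 0.08 for *Trh* (permutation P = 0.293, 0.216, 0.791 and 0.704; adjusted P = 0.491, 0.409, 0.884 and 0.839). Spearman's coefficient (rho) was -0.16, -0.19, 0.04 and 0.07, and r without the 2 farthest mice was 0.06, -0.09, 0.29 and 0.04. The wide range of this sum between mice was not matched by *Sim1*, which was 200.2 in *cast/cast* mouse 1 and 217 in *cast/cast* mouse 10.

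*Nr5a1* ranged from 17.8 to 96.5 normalized counts in *cast/cast* mice, with a median of 45.2, and from 13.5 to 136 in *b6/b6* mice, with a median of 46.4. The libraries apart had the highest values, 136 and 119.6, and the other *b6/b6* mice lay inside the range of *cast/cast* mice except for mouse 7. Its log2 fold change was -0.16 ± 0.35 (SE, P = 0.637), and 0.13 without the libraries apart. The genes most like *Nr5a1* were *Rps14* (r = 0.81), *Esyt3* (0.80) and *1700040L02Rik* (0.79), and 10.3% of all genes were associated with it. The share was 23.0% with equal totals and 16.2% when study number was a covariate, and the count was 0 in *cast/cast* mice alone and 0 without the libraries apart.

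*Fezf1* ranged from 8.31 to 113 normalized counts in *cast/cast* mice, with a median of 59.1, and from 22.6 to 138 in *b6/b6* mice, with a median of 57.6. Low values came mainly from libraries with PC1 above 0, whose median was 32.1, against 68.9 below 0 and 96.2 in the libraries apart, and the genotypes overlapped. The log2 fold change was -0.22 ± 0.35 (SE, P = 0.530), and -0.09 without the libraries apart. The genes most like *Fezf1* were *Capsl* (r = 0.89), *Ust* (0.86) and *Cct2* (0.85), and 35.4% of all genes were associated with it (39.8% without the libraries apart, 40.3% in *cast/cast* mice alone, and a count of 0 in *b6/b6* mice alone). *Capsl* was the only 1 of the 3 that also passed with both components as covariates (r = 0.83, adjusted P = 0.00691), with r of 0.99 in the 10 libraries and 0.72 in the 12.

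The ventromedial list (*Adcyap1*, *Bdnf*, *Esr1*, *Sox14*, *Nkx2-2*, *Vgll2*, *Dlk1* and *Gda*) had values for 8 of 8 genes, 0 called between genotypes and none at 0. Its sum ran from 1979.8 in *cast/cast* mouse 6 to 4769 in *b6/b6* mouse 12, and *Dlk1* (mean 954), *Gda* (713) and *Bdnf* (593) were the most abundant. Of the 8, 1 was associated with *Nr5a1* (*Adcyap1*) and 1 with *Fezf1* (*Dlk1*, r = 0.71), beside 10.3% and 35.4% of all genes. *Adcyap1*, which encodes the peptide PACAP, was at 1328 in *b6/b6* mouse 6 and 1971 in *b6/b6* mouse 12, and at 113 to 260.4 in the other 22 mice. Its correlation with *Nr5a1* was 0.62 (permutation P = 0.00076; rho 0.52, P = 0.00489; adjusted P = 0.0233), and 0.53 without the 2 mice farthest in *Nr5a1*. Without the libraries apart it was 0.40, in the 10 libraries 0.21 (permutation P = 0.567) and in the 12 libraries 0.13 (P = 0.690). In *cast/cast* mice alone, which include no library apart, it was 0.59, and with both components as covariates 0.16. The relation was thus strongest where the libraries apart entered and weak inside each set. *Fezf1* and *Adcyap1* gave r = 0.43 (permutation P = 0.0136; rho 0.52, P = 0.00682; 0.44 without the farthest; adjusted P = 0.0622), with 0.67 in the 10 libraries and -0.19 in the 12. This pair passed without the libraries apart (r = 0.57) and with equal totals. *Nr5a1* and *Fezf1*, both factors of the same nucleus, had r = 0.50 (permutation P = 0.0136; rho 0.48, P = 0.0196; 0.36 without the farthest), with 0.49 and 0.24 in the sets, and passed in 1 of the 2 fits (adjusted P = 0.0309 and 0.0659), so the pair did not count as associated, though it passed in both with equal totals.

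*Foxb1* ranged from 86.8 to 696 normalized counts in *cast/cast* mice, with a median of 255, and from 65.6 to 537 in *b6/b6* mice, with a median of 299. High and low mice occurred in both genotypes and on both sides of PC1, and the libraries apart were among the high ones. The log2 fold change was 0.27 ± 0.37 (SE, P = 0.481), and 0.49 without the libraries apart. Although *Foxb1* was among the most variable of the 9, 0.05% of genes (7 of 13997) were associated with it, and among those most like it were *Cpne9* (r = 0.90) and *Slitrk6* (0.87). The r was similar in each set, 0.86 and 0.82 in the 10 libraries and 0.93 and 0.90 in the 12, and with both components as covariates (0.89 and 0.85). In the 10 libraries alone 0 of 13745 genes passed the adjusted test for *Foxb1*.

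The mammillary list had values for 6 of 9 genes, among them *Lhx5*, *Foxa1*, *Lmx1a*, *Barhl1* and *Irx5*, with *Foxa2*, *Lmx1b* and *Sim2* not analysed here. Of the 6, 0 were called between genotypes. *Irx5* (mean 56.6) and *Lhx5* (32.1) were low beside *Foxb1* itself, and *Foxa1* was at 0 in 3 mice. *Foxb1* and *Lhx5* gave r = 0.52 (permutation P = 0.0141; rho 0.41, P = 0.0565; adjusted P = 0.734) and 0.31 without the farthest mice. *Cartpt* (r = -0.20) and *Tac1* (r = -0.12), which other nuclei also express, varied apart from *Foxb1*. *Foxb1* and *Lhx1*, which is also made in the mammillary body, gave r = 0.54 (permutation P = 0.00808; rho 0.53, P = 0.00918; 0.46 without the farthest), with 0.56 and 0.47 in the sets, and did not pass the test over all genes (adjusted P = 0.185 and 0.734).

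*Six6* and *Six3*, at the other end of the axis, were both associated with *Foxa1* and *Lhx5* of the mammillary list, with negative r, beside 29.2% and 11.2% of all genes. For *Six6* the values were -0.72 (*Foxa1*) and -0.54 (*Lhx5*), and for *Six3* -0.70 (*Lhx5*) and -0.54 (*Foxa1*). *Foxa1* was at 42.0 and 64.2 in *b6/b6* mice 6 and 12 and at most 7.53 in the other 22 mice, and without these libraries *Six3* was associated with 0 and *Six6* with 2 of all genes. Between the factors themselves, *Foxb1* had r = -0.54 with *Six3* (permutation P = 0.00861; rho -0.32, P = 0.144) and -0.43 with *Six6* (P = 0.0498; rho -0.36, P = 0.105), which were -0.37 and -0.25 without the 2 farthest mice, and neither pair passed in both fits. In the sets the values were -0.72 and -0.18 for *Six3* and -0.47 and -0.12 for *Six6*.

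Taken over all 36 pairs of the 9 factors, r was positive in 14 and negative in 22, 14 had a permutation P of at most 0.05, and 4 passed the test over all genes in both fits. The other 3 besides *Six3* and *Six6* all involve *Nkx2-1*, with which 47.9% of all genes were associated, so 3 of its 8 pairs are no more than that share. *Nkx2-1* and *Fezf1* had r = 0.67 (permutation P = 0.00051; rho 0.52, P = 0.0122; 0.53 without the 2 farthest mice; adjusted P = 0.000889 and 0.00161), *Nkx2-1* and *Nr5a1* r = 0.56 (permutation P = 0.00596; rho 0.65, P = 0.00113; 0.58; adjusted P = 0.00880 and 0.0370). *Nkx2-1* and *Six6* had r = -0.53 (permutation P = 0.00222; rho -0.64, P = 0.00041; -0.46; adjusted P = 0.0115 and 0.0203). Within the 10 and the 12 libraries these were 0.54 and -0.19 for *Fezf1*, 0.06 and 0.68 for *Nr5a1*, and -0.44 and 0.09 for *Six6*, so none of the 3 held in both sets. Without the libraries apart only *Nkx2-1* with *Fezf1* passed, and *Nkx2-1* with *Six6* passed neither with equal totals nor with study number as a covariate (r = -0.49). The medians of *Nkx2-1*, *Fezf1* and *Nr5a1* were higher in the 12 libraries (357, 68.9 and 54.0) than in the 10 (90.4, 32.1 and 37.5). That of *Six6* was lower in the 12 than in the 10 (362 against 580.5), and lowest in the libraries apart (106). *Nr5a1* in the 10 (17.8 to 58.0) lay inside its range in the 12 (13.5 to 96.5), and levels were not tested between sets. Of the 30 listed pairs of a factor with a companion of its nucleus 25 had values, and 3 passed, *Nr5a1* with *Adcyap1* and *Six3* with *Six6* among them, neither of which passed without the libraries apart. In all, 55 relations were computed by rule and 3 were added after their values were seen, 58 together, and adjusted P values are over all genes of the fit.

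Genes of other regions and cell types were read beside the factors, in 16 lists with values for 84 of 114 genes. Between genotypes 1 of the 84 was called, beside 1.49% of all genes. It was *Tcf7l2* of the thalamus list, with a log2 fold change of -0.84 (P = 0.00710, adjusted P = 0.449) and a ratio of 0.510. *Tcf7l2* was not called with study number as a covariate (P = 0.0185), nor in either library set. Another 4 had an unadjusted P of at most 0.05, namely *Vipr2*, *Gda*, *Ramp3* and *Neurod2*. Their part in the levels of the factors was not tested.

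The lists of other hypothalamic regions differed widely between mice. In the lateral area (*Hcrt*, *Pmch*, *Lhx9* and *Nptx2*; 4 of 4 with values, 0 called, none at 0) the sum ran from 2759.6 in *cast/cast* mouse 6 to 26784 in *b6/b6* mouse 12, mostly *Pmch* (mean 8130). *Hcrt* and *Pmch* had negative r with *Six6* (-0.53 and -0.59) and *Six3* (-0.59 and -0.72), 2 of 4 genes in each case, beside 29.2% and 11.2% of all genes. In the dorsomedial and tuberomammillary list (*Hdc*, *Hmx2* and *Ppp1r17*; 3 of 4, 0 called, none at 0) the sum ran from 711 to 2884, mostly *Hdc* (mean 1472). The anterior GABAergic list (*Dlx1*, *Dlx5*, *Lhx6* and *Meis2*; 4 of 8, 0 called, none at 0) ran from 197 to 907, led by *Dlx1* (mean 217). The tanycyte list (*Crym*, *Gpr50*, *Dio2* and *Col23a1*; 4 of 6, 0 called, none at 0), for the glia lining the third ventricle, ran from 324 in *cast/cast* mouse 9 to 2899 in *b6/b6* mouse 2, led by *Col23a1* (mean 1045). *Col23a1* had r = 0.70 with *Six6* and 0.69 with *Six3*, 1 of 4 genes in each case, beside 29.2% and 11.2% of all genes. The median r over the 4 genes was 0.06 with *Six6* and -0.02 with *Six3*. These hypothalamic lists therefore varied several fold between dissections in the absence of a call between genotypes.

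Genes of neighbouring tissue and of broad cell types were read in the same way. The thalamus list (*Tcf7l2*, *Lef1*, *Gbx2*, *Prkcd*, *Plekhg1* and *Ramp3*; 6 of 6, 1 called) ran from 260.5 to 1911, highest in *b6/b6* mice 5 and 7 (1911 and 1445), led by *Tcf7l2* (mean 155), with *Gbx2* at 0 in 1 mouse. The cortex and striatum list (8 of 12, 0 called) ran from 1152 to 3179, led by *Rgs9* (mean 1451), with *Tbr1* at 0 in 6 mice and *Neurod2* in 3. In the pituitary list (*Gh*, *Cga* and *Pitx1*; 3 of 10, 0 called) all 3 were at 0 in some mice (11, 5 and 6 mice), and the sum ran from 0 to 470.9, in *b6/b6* mouse 12, where *Gh* was 467. The choroid plexus list (6 of 9, 0 called) ran from 143 to 625.5, led by *Kl* (mean 72.0), with *Kcnj13* at 0 in 1 mouse, and of the midbrain and hindbrain list 1 of 6 genes, *Slc6a3*, had values (33.0 to 359, 0 called, never at 0). The myelin list (6 of 6, 0 called, none at 0) ran from 12610 to 44480, led by *Mbp* (mean 20112), and the neuron list (4 of 4, 0 called, none at 0) from 23152 to 42043, led by *Snap25* (mean 17113). For myelin, the median sum was 16469 in the 10 libraries, 28631 in the 12 and 26854 in the libraries apart, the same order as *Nkx2-1* for the first pair of sets. The part of these tissues in the spread of the factors was not tested.

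Intake was compared with the factors only within a genotype, since the mice had been selected on it. C/P intake over 10 d ran from 27.4 to 41.0 kcal for *b6/b6* and from 77.8 to 106.6 kcal for *cast/cast* mice. Of 36 relations with C/P or total kcal, limma called 0 at an adjusted P of at most 0.05, beside 0.00% of all genes in each of the 4 fits, and 3 had an unadjusted P of at most 0.05. That threshold was passed by 2.39% of genes for C/P and 26.4% for total kcal in *cast/cast* mice, and by 23.9% and 2.81% in *b6/b6* mice. The lowest adjusted P was that of *Sim1* with C/P kcal in *b6/b6* mice (r = 0.74, permutation P = 0.00395; rho 0.69, P = 0.0168; adjusted P = 0.0918). It was 0.41 without the 2 mice farthest in intake and 0.62 without the libraries apart. The others were *Fezf1* with total kcal, r = -0.67 in *b6/b6* mice (permutation P = 0.0179; rho -0.66, P = 0.0241; -0.60 without the 2 farthest; adjusted P = 0.883) and 0.52 in *cast/cast* mice (permutation P = 0.0835; rho 0.66, P = 0.0226; 0.34; adjusted P = 0.186). No factor was thus tied to intake at the level the test requires.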

How the data were processed

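Hypothalamus SAGE-Seq libraries of 24 mice, 12 *cast/cast* and 12 *b6/b6*, were compared. The deposited signal is, for each gene and mouse, the tag hits that the authors obtained with their adapted SOLiD SAGE software on RefSeq mRNA (GRCm38/mm10), normalized by DESeq size factors. Other columns hold group means, not used, and the authors' own DESeq comparison, that is a fold change (a ratio), its log2 value as computed by the authors, and p-values with their adjusted form as deposited by the authors, none of which was used. Of 19529 rows for 13998 genes, lines given for the same gene were identical in their values. In every library 100% of values became whole numbers on division by 1 constant (tolerance 0.01), which gave back the tag hits, and edgeR on those called 391 genes. The lowest mean normalized count was 6.03. Libraries were compared in 276 pairs, with chi-square over degrees of freedom never below 14.6.

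The test was limma 3.58.1 (lmFit, eBayes with trend) on log2(normalized count + 1) over all genes with a mean of at least 5, so that fold changes are on that scale. Calls needed P at or below 0.01, before adjustment, with a ratio of 1.5 or more. Associations used the level of a factor as a term beside genotype, with Benjamini-Hochberg adjustment over all genes; r and rho are of residuals from the genotype means, with two-sided tests of 100000 permutations within genotype. A pair of factors counted when both fits gave an adjusted P of at most 0.05, and a pair with a companion when the fit of the factor did. The study numbers in the labels had a median of 269.5 for *b6/b6* and 120.5 for *cast/cast*.

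The genes named were the listed factors, their companions, in each list the genes called and the 3 with the highest mean, and the 3 genes with the highest r to each factor; other genes were named after their values were seen, and some genes of the lists are not reported here. Members and lists were chosen with earlier results of these data known. Fixed before the values were read were 12 other settings, namely pseudocounts of 0.5 and 5, a minimum mean of 20, no filter, equal totals, edgeR 4.0.16, DESeq2 1.42.0, study number as a covariate, each genotype alone, and, for calls, adjusted P or no minimum ratio; 4 were added after seeing the data, namely leaving out the libraries apart, PC1 and PC2 as covariates, and each library set alone. The scripts were tested on simulated data. Software was R 4.3.3 and Python 3.11.15 (matplotlib 3.10.9, scipy 1.17.1, pandas 2.3.3, numpy 2.4.6). Tags were predicted from GENCODE transcripts and not read from the libraries, and promoters came from RefSeq.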

Additional observations from a re-analysis of the deposited data

How the results depend on the processing

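No factor was called between genotypes under any of the alternatives run, and the count of factors associated with intake was 0 in the 4 run for it (both other pseudocounts, equal totals and study number). For the calls, no filter only repeated the main fit, since the lowest mean normalized count was 6.03. PC1 and PC2 as covariates left the log2 fold change of each factor unchanged. With study number as a covariate, 271 of 13982 genes passed for C/P kcal in *b6/b6* mice, against 0 in the main fit. Of the 84 list genes 1 was called, beside 1.49% of all genes. The count was 6 with edgeR (2.79% of all genes), 4 with DESeq2 (2.82%) and 5 with PC1 and PC2 as covariates (4.96%). In the 10 libraries above 0 it was 3 (7.54%). With study number as a covariate the count was 2, and the share over all genes is not reported here. *Adcyap1*, *Gpr50* and *Mag*, called with edgeR, were each highest in the libraries apart. With study number, and in each library set alone, the genes called did not include *Tcf7l2*. In the 12 libraries below 0, where 1.15% of all genes were called, the 1 list gene called was *Slc6a3* (log2 fold change -1.62, limma P = 0.00057). The count of associated pairs of factors was 4, and it was 1 in *cast/cast* mice only, 2 in *b6/b6* mice only, 1 without the libraries apart, and 0 with PC1 and PC2, in the 10 libraries and in the 12. For pairs with companions it was 3, and it was 0 in *cast/cast* mice only, 5 in *b6/b6* mice only, 4 with equal totals, 4 with study number, 2 without the libraries apart, 1 with PC1 and PC2, 0 in the 10 libraries and 1 in the 12. The sets hold fewer mice.

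The sign of a log2 fold change turned, with no call on either side, for *Sim1* to -0.0328 (same total), -0.138 (without the libraries apart), -0.0862 (the 10) and -0.164 (the 12), and for *Isl1* to 0.0603 (study number) and 0.205 (the 12). For *Six3* it turned to -0.0194 (same total), -0.0447 (edgeR), -0.0385 (DESeq2), -0.0719 (without the libraries apart) and -0.0779 (the 10), for *Fezf1* to 0.20 (the 12), and for *Nr5a1* to 0.13 (without the libraries apart) and 0.83 (the 12). The correlation of *Nkx2-1* with *Six6* turned to 0.00315 with PC1 and PC2 and to 0.0947 in the 12 libraries, and that with *Fezf1* to -0.0645 and -0.194. The cause was not tested. The lowest library of *Fezf1* held 7 tag hits. For the low factors the variance was 7.71 (*Lhx1*), 16.9 (*Fezf1*) and 21.05 (*Nr5a1*) times that of counting alone. The part of depth in their levels was not tested. With 12 mice a genotype the standard errors were 0.16 (*Isl1*) to 0.45 (*Nkx2-1*) on the log2 scale. No paired analysis was possible because the labels give the genotypes no shared replicate numbers.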

Other observations

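Single mice stood out in several genes of a list, and these mice and genes were picked after their values were seen. In *cast/cast* mouse 9, 5 of the 8 arcuate genes were at their lowest, with *Agrp* at 15.1 normalized counts (median of all mice 901), *Pomc* at 320.3 (2180), *Npy* at 4.72 (31.2), *Tbx3* at 5.67 (78.7) and *Kiss1* at 0 (11.8), and the tanycyte gene *Col23a1* was at 195 (882). Of the other arcuate genes *Ghrh* was low there (317, median 654), *Cartpt* was near its median (897, median 974) and *Tac2* was above it (564, median 446). *Isl1* was 339 and *Nkx2-1* 170.1. In *cast/cast* mouse 1 *Foxb1* was at its highest (696), and *Trh* (128, median 689.9) and *Arnt2* (68.9, median 458) were at their lowest, with *Sim1* at 200.2. In *cast/cast* mouse 10 *Trh* was highest (4238) and *Foxb1* was 86.8. In *b6/b6* mouse 5 *Vip* was 11.8 (median 145) and *Six6* 156, with *Gbx2* at 660.1 (median 27.0).

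The libraries apart, *b6/b6* mice 6 and 12, also had high *Npy* (392 and 278), *Nptx2* (2044 and 1910), *Gpr50* (116 and 82.7) and *Mag* (369 and 597), each above every other mouse. In *b6/b6* mouse 12, 7 of the 9 factors were over 2-fold from their median, *Nkx2-1*, *Fezf1*, *Nr5a1* and *Foxb1* above and *Sim1*, *Six3* and *Six6* below. In *b6/b6* mouse 6 it was 5, and in the other 22 mice at most 4.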
